A study of Mus musculus with 4 samples.

Results

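The genes described here are the mouse Wnt ligands, their Frizzled and Lgr receptors, and the secreted proteins that modulate them. They were taken by symbol from the gene count table: every row named Wnt, Fzd, Dkk, Sfrp or Rspo with a family number, and Lgr4 to Lgr6. The rule used no measured value and found 44 of 55418 rows, of which 19 were Wnt ligands, 10 Frizzleds, 4 Dickkopfs, 4 secreted Frizzled-related proteins, 4 R-spondins and 3 Lgr receptors. RNA-seq had been done on 4 libraries of E14 cells, a mouse embryonic stem cell (ESC) line whose strain the labels give as 12910la. WT ESCs gave 2 libraries, and Pim3-/- ESCs, in which the gene for the serine/threonine kinase PIM3 had been mutated by CRISPR/Cas9, gave 2. All cells grew on gelatin in serum medium with LIF, the cytokine that sustains self-renewal, and no library came from treated or differentiating cells. The WT libraries came from separate biological samples of the unedited line. The Pim3-/- libraries came from 2 clones edited with guides against Pim3 exons. Each difference between genotypes below thus rests on 2 clones, and the spread within the group is the spread between clones. The labels do not say which clone a replicate number stands for.

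Wnt proteins are lipid-modified secreted ligands that bind Frizzled receptors and, in the canonical branch, the coreceptors LRP5 and LRP6, which stops the destruction of beta-catenin so that it can enter the nucleus and act with TCF and LEF factors. R-spondins bind Lgr receptors and protect Frizzleds from removal by the ligases RNF43 and ZNRF3. Secreted Frizzled-related proteins bind the ligands, and Dickkopf proteins such as DKK1 bind the LRP coreceptors. In mouse ESCs canonical Wnt signalling is known for favouring self-renewal, and in the embryo Wnt signals are needed for the primitive streak.

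Depth set what could be seen of these genes, since most Wnt ligands were rare transcripts. Gene counts summed to between 22029427 and 25668307 per library, and the 44 genes took between 5585 and 10768 of them, from 0.0241% to 0.0489%. A level is given below as CPM, a read count divided by the size of its library on the usual scale, after TMM scaling, which corrects that size for composition. A count of 3, taken as the limit of detection, was worth 0.112 to 0.156 CPM. TMM factors of the WT libraries (0.828 and 0.883) were lower than those of the Pim3-/- libraries (1.17 and 1.17), so the scaling itself differed between genotypes. Scaled to library totals alone, the median log2 fold change of all tested genes moved up by 0.449. Pim3 itself had 4392 and 4953 counts in WT versus 4970 and 4804 in Pim3-/- libraries, a log2 fold change of -0.27 (SE 0.17, adjusted p = 0.251), or 0.19 on library totals. A gene-level count does not read a small mutation inside an exon, so it did not check the labels.

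Promoter sequence is shown for 4 members chosen for the range of their fold changes. Fzd1 had the largest fold change of the family. Wnt9a and Wnt10b were ligands that passed the test at a higher and a lower level. Fzd5 was the Frizzled with the highest level and had a log2 fold change of 0.00. Each run is the 250 bases before the RefSeq start site on build GRCm38.p6, 5' to 3' on the gene's strand, with CpG dinucleotides in capitals. The window of Fzd1 is chr5:4758217-4758466 on the minus strand, that of Wnt9a is chr11:59306680-59306929 on the plus strand, that of Wnt10b is chr15:98778151-98778400 on the minus strand and that of Fzd5 is chr1:64737751-64738000 on the minus strand.
Fzd1: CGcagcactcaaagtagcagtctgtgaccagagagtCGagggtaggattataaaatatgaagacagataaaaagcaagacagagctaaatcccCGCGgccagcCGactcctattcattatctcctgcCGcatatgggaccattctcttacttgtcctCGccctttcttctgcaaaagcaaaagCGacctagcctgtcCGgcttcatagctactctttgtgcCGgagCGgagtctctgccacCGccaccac
Wnt9a: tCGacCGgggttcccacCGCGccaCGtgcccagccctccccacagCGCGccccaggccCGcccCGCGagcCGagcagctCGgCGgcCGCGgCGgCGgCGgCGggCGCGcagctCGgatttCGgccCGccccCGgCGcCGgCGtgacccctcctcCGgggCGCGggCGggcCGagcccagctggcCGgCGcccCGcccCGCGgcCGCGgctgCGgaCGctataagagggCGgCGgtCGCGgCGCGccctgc
Wnt10b: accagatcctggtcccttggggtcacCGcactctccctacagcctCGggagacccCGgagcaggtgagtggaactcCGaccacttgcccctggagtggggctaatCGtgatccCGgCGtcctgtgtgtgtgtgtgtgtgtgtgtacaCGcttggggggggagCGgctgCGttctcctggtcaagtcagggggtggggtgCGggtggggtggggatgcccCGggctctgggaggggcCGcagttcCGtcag
Fzd5: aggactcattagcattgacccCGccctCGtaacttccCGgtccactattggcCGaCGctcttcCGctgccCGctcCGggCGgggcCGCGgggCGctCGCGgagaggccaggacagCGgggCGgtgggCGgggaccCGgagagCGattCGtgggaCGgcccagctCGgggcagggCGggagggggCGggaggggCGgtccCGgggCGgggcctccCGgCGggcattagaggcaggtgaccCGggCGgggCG

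The Wnt9a run held 48 CpGs, that of Fzd5 32, that of Wnt10b 14 and that of Fzd1 12. The observed number of CpGs over the number expected from base composition was 1.09 for Wnt9a, 0.908 for Fzd5, 0.751 for Fzd1 and 0.522 for Wnt10b. In these 4 runs the members with a large fold change thus held both the highest and the lowest CpG content. RefSeq windows of 300 bases, from 250 before to 50 after the start, were given for 29 of the 44 members, in 32 windows. Their median CpG count was 26.5 and their median GC content 68.3%, beside 7 and 52.7% over all 32851 windows of 27025 genes. An observed over expected ratio of at least 0.6, a usual criterion for a CpG island, was met by 25 of the 32 windows, or 78.1%, beside 35.8% of all windows. The letters CTTTGAT, a core motif of TCF and LEF factors, were searched on both strands (the other strand reads ATCAAAG). They were found in 2 member windows, those of Wnt5b and Wnt11, which is 6.25% beside 3.73% of all windows, and in none of the 4 runs printed above.

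In WT ESCs a few members carried most of the family's RNA. Per kilobase of exon, the scale on which genes can be compared, Sfrp1 stood highest, at 14.4 and 15.0 CPM per kb in the WT libraries (mean 14.7). SFRP1 is a secreted ligand-binding antagonist. Fzd5, a receptor for several Wnt ligands, had 13.3 and 14.3 CPM per kb, close below the range of Sfrp1. Fzd7, a receptor known from pluripotent stem cells, followed at 5.87 and 7.28 CPM per kb, and the R-spondin receptor gene Lgr4 at 4.37 and 5.37. The next genes in order were Dkk3, Fzd10, Sfrp2, Sfrp4 and Fzd9, with WT means from 3.68 to 2.50 CPM per kb. The ranges of Fzd7 and Lgr4 did not overlap, whereas Dkk3 and Fzd10 differed by less than the spread of Fzd10, and the ranges of Fzd10 and Sfrp2 overlapped. Together Fzd5, Sfrp1, Fzd7 and Lgr4 held 71.1% and 73.3% of the family's counts in WT libraries.

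The ligand genes were low by comparison. Wnt6 had the highest level of the 19, at 2.14 and 1.95 CPM per kb, and the next ligands, Wnt9a at a mean of 0.493, Wnt5b at 0.456 and Wnt11 at 0.335 CPM per kb, lay well under it. The ranges of Wnt9a and Wnt5b overlapped. Lgr5, a stem cell marker of adult epithelia, had 1 count in 4 libraries. Rspo2 had none. In WT, 16 of the 44 members had at most 3 counts in both libraries, 8 of them ligands, and in Pim3-/- 7 did.

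**Figure D1:**
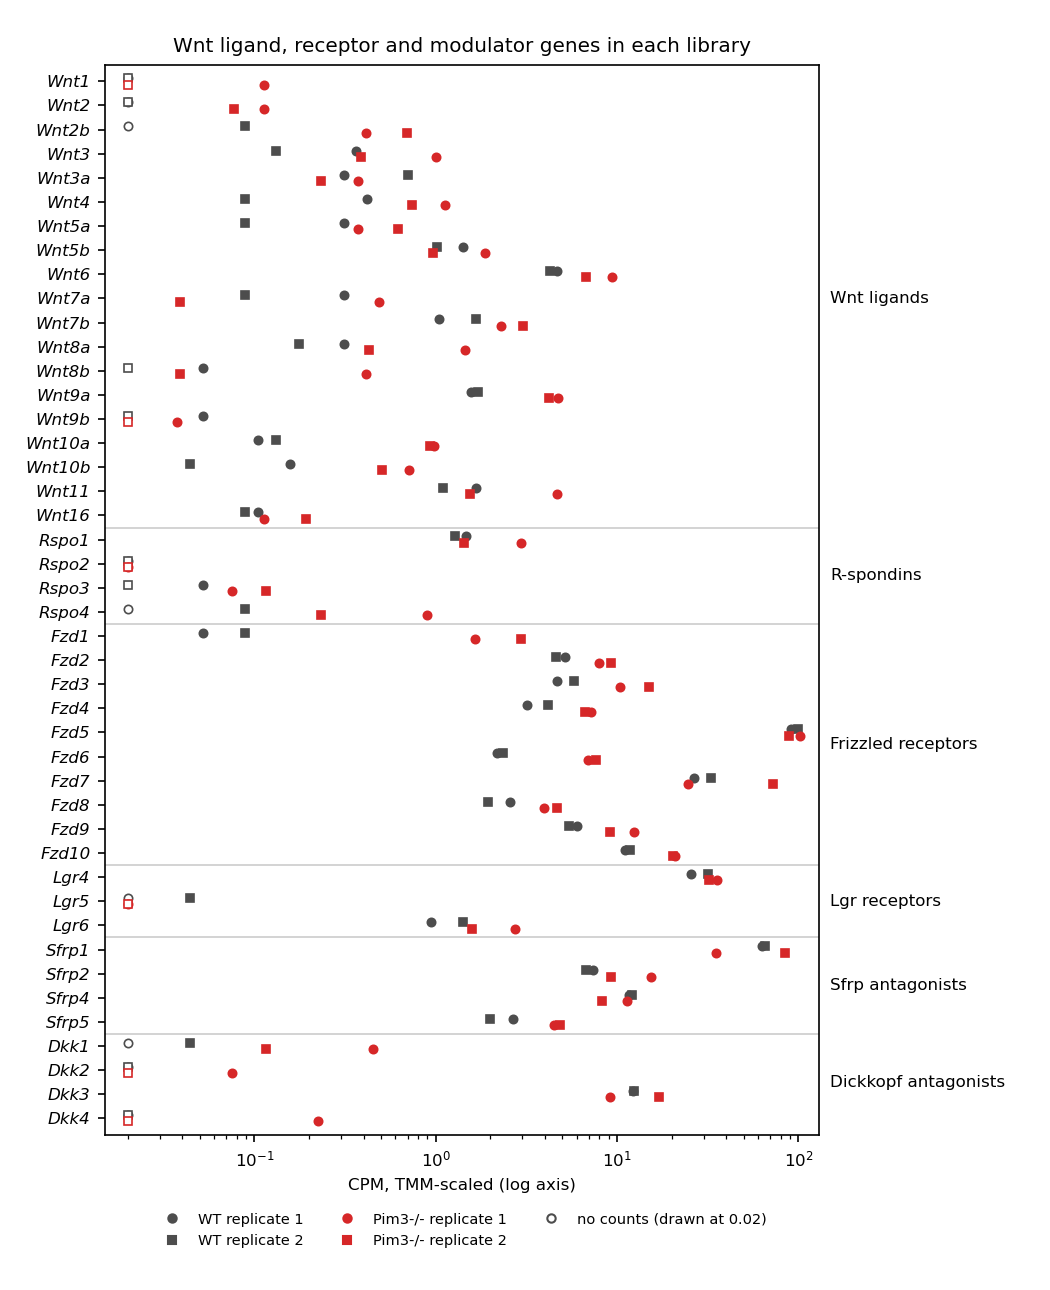
Level of each of the 44 genes in each library, in TMM-scaled CPM on a log axis, with WT in grey, Pim3-/- in red, circles for replicate 1 and squares for replicate 2; open symbols drawn at 0.02 mark libraries with no counts. Fzd5 and Sfrp1 lie farthest right and most ligands lie under 2 CPM; the red points of Fzd1, at a mean of 2.30 CPM, stand far from the grey ones, at 0.0702 CPM, while those of Fzd5 and Dkk3 lie on both sides of the grey ones.

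The comparison of Pim3-/- with WT asked which of these genes differed between the groups. All Pim3-/- libraries came from edited clones and all WT libraries from the unedited line. Loss of the kinase therefore cannot be told apart from editing or from the derivation of clones. Of the 31 members with enough counts for the test, 12 were upregulated in Pim3-/- ESCs, 0 were downregulated and 19 did not pass (edgeR quasi-likelihood test, Benjamini-Hochberg adjustment over 18444 tested genes, adjusted p under 0.05). Over all tested genes, 17.6% were called higher and 16.2% lower, so the 12 of 31 is to be read against 17.6%. The count of 0 lower members was also 0 at an unadjusted p under 0.05, and 0 with the Wald test of DESeq2, adjusted or not. The upregulated members were the receptors Fzd1, Fzd2, Fzd3, Fzd4, Fzd6, Fzd9 and Fzd10, the ligands Wnt2b, Wnt9a, Wnt10a and Wnt10b, and the antagonist Sfrp5. The median log2 fold change was 0.91 over the 31 and 0.07 over all tested genes. In CPM, both Pim3-/- libraries lay above both WT libraries for 22 of the 31 tested members and below for 1, where 38.3% of all tested genes lay above and 34.2% below.

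Those counts depend in part on which genes could be tested. Of the 31, 22 passed the filter on low counts in both WT libraries, and 8 of these were upregulated. A further 8 passed only through the Pim3-/- libraries and so had to lie higher there: Fzd1, Wnt2b, Wnt3, Wnt4, Wnt5a, Wnt8a, Wnt10a and Wnt10b, of which 4 were called. All 8 were also among the members with both Pim3-/- libraries above both WT libraries, and they enter the median of 0.91. That count and that median thus rest in part on the filter. The other 13 members had too few counts, and no test was made of them. The calls also needed both WT libraries. When WT replicate 1 or WT replicate 2 was left out, 0 members passed in the edgeR test (12 and 7 did at an unadjusted p under 0.05), while 0.136% and 0.488% of all genes were called higher and 0.0271% and 0.569% lower. With Pim3-/- replicate 1 left out 18 members were called higher and 1 lower (Sfrp4), and with Pim3-/- replicate 2 left out 21 higher and 1 lower (Sfrp1), where 29.2% and 26.3% of all genes were higher and 27.9% and 25.6% lower. In each of these fits the lone library of a group is assumed to vary like the other group. Scaled to library totals, 21 members were higher (35.8% of all genes, with 5.93% lower). With the Wald test 7 were (13.9% of all genes, with 17.3% lower), and 8 without a filter on low counts (9.1%, with 9.47% lower). A change of at least 3-fold as well left 5 members, Fzd1, Fzd6, Wnt2b, Wnt10a and Wnt10b (8.47%, with 1.38% lower). Of these, all but Fzd6 had passed the filter only through the Pim3-/- libraries, so this count cannot be read against that share. In bulk RNA, more cells that express a gene and more RNA of it per cell cannot be told apart.

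Among the ligands, 4 of the 13 tested genes were upregulated, beside 17.6% of all tested genes, and 3 of the 4 (Wnt2b, Wnt10a and Wnt10b) had passed the filter only through the Pim3-/- libraries. Wnt9a, a ligand known from joint and skeletal development, had 30 and 39 counts in WT versus 126 and 109 in Pim3-/- libraries. Its level was 1.64 ± 0.110 CPM (SD, n = 2) in WT and 4.47 ± 0.348 in Pim3-/- (log2 fold change 1.44, SE 0.32, adjusted p = 0.015), and its groups stood well apart. It lies at chr11:59306928-59333552 on the plus strand of GRCm38, 16.2 kb from Wnt3a, a canonical ligand that is a classic inducer of beta-catenin signalling. Wnt3a had 6 and 16 counts in WT versus 10 and 6 in Pim3-/- libraries, and its groups overlapped (log2 fold change -0.76, SE 0.63, adjusted p = 0.377). It was the tested ligand with a negative fold change, beside 12 with a positive one.

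Wnt10a and Wnt10b, ligands with known roles in tooth, skin and fat development, were close to the limit of detection in WT. Wnt10a had 2 and 3 counts in WT versus 26 and 24 in Pim3-/- libraries, a ratio of 7.97 on summed counts (95% exact interval 3.20 to 25.6, covering counting error only), with a fitted log2 fold change of 2.94 (SE 0.59, adjusted p = 0.0108). Wnt10b had 3 and 1 counts in WT versus 19 and 13 in Pim3-/- libraries, a ratio of 6.37 (2.26 to 24.8), with a fitted value of 2.59 (SE 0.74, adjusted p = 0.0315) that ran from 1.91 without WT replicate 2 to 3.66 without WT replicate 1. Both genes had counts in every library and were higher in both Pim3-/- libraries. Each sits beside another Wnt gene. Wnt10a lies on chromosome 1, 6.2 kb from Wnt6 on the same strand, and Wnt6, the most abundant ligand, had 90 and 97 counts in WT versus 251 and 174 in Pim3-/- libraries (log2 fold change 0.85, SE 0.28, adjusted p = 0.0525), with no overlap but short of the threshold. Wnt10b lies on chromosome 15, 11.7 kb from Wnt1 on the opposite strand, and Wnt1, a ligand of midbrain development, had no counts but 3 in Pim3-/- replicate 1.

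Wnt2b had 0 and 2 counts in WT versus 11 and 18 in Pim3-/- libraries. The ratio of summed counts was 11.6 (2.92 to 99.9), and the fitted log2 fold change of 3.41 (SE 0.94, adjusted p = 0.0285) was 2.61 without WT replicate 1 and 6.74 without WT replicate 2, where the remaining WT library is at 0. Its close relative Wnt2 had 0 counts in both WT libraries and 3 and 2 in Pim3-/-, too few for a test. Wnt4, a ligand of kidney and gonad development, had 8 and 2 counts in WT versus 30 and 19 in Pim3-/- libraries (log2 fold change 1.91, SE 0.70, adjusted p = 0.0701). Wnt4 did not overlap between groups, but its WT libraries lay far apart.

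For the other tested ligands the difference was within the spread between libraries or missed the threshold. Wnt7b had 20 and 38 counts in WT versus 61 and 78 in Pim3-/- libraries (log2 fold change 0.95, adjusted p = 0.105), and both Pim3-/- libraries were higher in CPM. Wnt11 and Wnt8a leaned on 1 clone. Wnt11 had 32 and 25 counts in WT, 125 in Pim3-/- replicate 1 and 40 in replicate 2, and its log2 fold change of 1.17 (adjusted p = 0.14) was 0.17 without Pim3-/- replicate 1. Wnt8a, a ligand of the posterior embryo and a canonical Wnt, had 6 and 4 counts in WT, 39 in Pim3-/- replicate 1 and 11 in replicate 2, and its 1.95 (adjusted p = 0.0797) was 0.81 without replicate 1. Wnt3, the ligand needed for the mouse primitive streak, showed the same shape, with 7 and 3 counts in WT, 27 in Pim3-/- replicate 1 and 10 in replicate 2 (log2 fold change 1.51, adjusted p = 0.145). Wnt3 lies 24.3 kb from Wnt9b, which had at most 1 count in any library. The noncanonical ligand Wnt5a had 6 and 2 counts in WT versus 10 and 16 in Pim3-/- libraries (log2 fold change 1.33, adjusted p = 0.187). Its relative Wnt5b had 27 and 23 in WT versus 50 and 25 in Pim3-/- libraries (0.24, adjusted p = 0.727), with groups that overlapped. The 6 untested ligands ranged from 0 counts to the 13 of Wnt7a in Pim3-/- replicate 1.

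R-spondins and their Lgr receptors gave no call among 3 tested genes. Rspo1 had 28 and 29 counts in WT, 79 in Pim3-/- replicate 1 and 37 in replicate 2, and its groups overlapped in CPM (log2 fold change 0.68, SE 0.46, adjusted p = 0.276). Rspo4, untested, had 0 and 2 counts in WT versus 24 and 6 in Pim3-/- libraries, a ratio of 11.9 (95% exact interval 3.03 to 103) to which replicate 1 gave most. Rspo3 had between 0 and 3 counts. Lgr4, the most abundant of the Lgr genes, had 493 and 716 counts in WT versus 951 and 832 in Pim3-/- libraries, or 28.7 ± 4.15 against 33.9 ± 2.37 CPM (log2 fold change 0.24, SE 0.18, adjusted p = 0.322). Its highest WT and lowest Pim3-/- values almost met. Lgr6 had 18 and 32 counts in WT versus 73 and 41 in Pim3-/- libraries (log2 fold change 0.87, SE 0.45, adjusted p = 0.168).

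All 10 Frizzled receptors were tested and 7 were upregulated, beside 17.6% of all tested genes. Among the 7, Fzd1 had passed the filter on low counts only through the Pim3-/- libraries. Calls were most frequent in this class, but most ligands had fewer counts, so the frequencies of calls cannot be compared directly between classes. Fzd1 had 1 and 2 counts in WT versus 44 and 76 in Pim3-/- libraries. From a level under the limit of detection in WT, 0.0702 ± 0.0255 CPM, it reached 2.30 ± 0.918 CPM in Pim3-/- ESCs, a ratio of 31.9 on summed counts (95% exact interval 10.6 to 157) and a fitted log2 fold change of 4.90 (SE 0.67, adjusted p = 0.00457). Fzd1 is a single-exon gene at chr5:4753839-4758035 on the minus strand of GRCm38, and its fitted value stayed between 4.42 and 5.32 when any 1 library was left out. Fzd6, a receptor known for planar cell polarity in skin and hair, had 42 and 53 counts in WT versus 185 and 197 in Pim3-/- libraries. Its level rose from 2.26 ± 0.104 to 7.28 ± 0.502 CPM (log2 fold change 1.68, SE 0.28, adjusted p = 0.00693), with replicates close together in both groups. Fzd3, which shares with Fzd6 its planar polarity role and guides axon tracts, had 89 and 131 counts in WT versus 277 and 388 in Pim3-/- libraries (log2 fold change 1.28, SE 0.28, adjusted p = 0.0141).

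The other 4 upregulated Frizzleds rose by similar, smaller amounts. Fzd10 had 212 and 266 counts in WT versus 560 and 524 in Pim3-/- libraries, or 11.4 ± 0.478 against 20.6 ± 0.462 CPM (log2 fold change 0.86, SE 0.19, adjusted p = 0.0149). Fzd9 had 116 and 123 in WT versus 331 and 236 in Pim3-/- libraries (0.91, SE 0.26, adjusted p = 0.0333). In both genes each Pim3-/- library was well above each WT library. Fzd4, which besides Wnt ligands binds the unrelated protein norrin in retinal vessels, had 61 and 94 counts in WT versus 192 and 171 in Pim3-/- libraries (0.91, SE 0.28, adjusted p = 0.042). Fzd2 had 99 and 104 in WT versus 213 and 238 in Pim3-/- libraries (0.82, SE 0.26, adjusted p = 0.0429). Fzd4 and Fzd2 passed narrowly, and with the Wald test of DESeq2 their adjusted p were 0.0625 and 0.0722. Fzd8 missed the threshold with 49 and 44 counts in WT versus 106 and 120 in Pim3-/- libraries (0.94, SE 0.33, adjusted p = 0.0596), a fold change no smaller than theirs.

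The 2 most abundant Frizzleds behaved otherwise. Fzd5 had 1757 and 2250 counts in WT versus 2722 and 2289 in Pim3-/- libraries, or 95.4 ± 5.38 against 95.3 ± 9.31 CPM (log2 fold change 0.00, SE 0.17, adjusted p = 0.992). Its groups overlapped, and on library totals the value was 0.45 (adjusted p = 0.0821), so its sign rests on the scaling. Fzd7 had 510 and 748 counts in WT, 656 in Pim3-/- replicate 1 and 1869 in replicate 2. In CPM the clones differed 2.95-fold, replicate 1 lying under both WT libraries and replicate 2 over both. The log2 fold change of 0.70 (SE 0.43, adjusted p = 0.236) was 1.28 without Pim3-/- replicate 1 and -0.28 without replicate 2. Whether the change of these genes differs from that of the other Frizzleds was not tested.

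**Figure D2:**
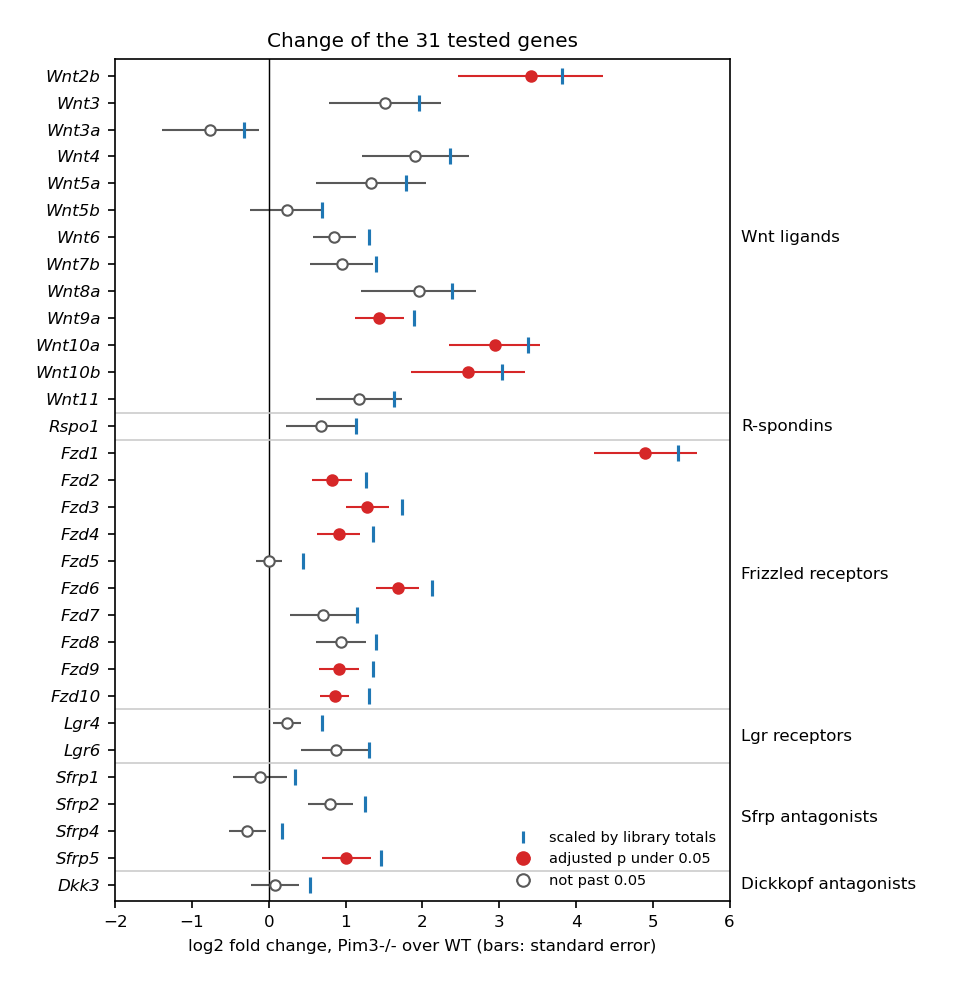
Log2 fold change of Pim3-/- over WT for the 31 tested genes with standard error bars, from edgeR with TMM factors; filled red points have an adjusted p under 0.05, open points do not, and blue ticks give the value on library totals. Fzd1 stands farthest right at 4.90, Wnt3a farthest left at -0.76, and the 3 points under 0 besides Fzd5 at 0.00 are those of Wnt3a, Sfrp1 and Sfrp4.

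Of the secreted Frizzled-related proteins, all 4 tested, 1 was upregulated. Sfrp5 had 51 and 45 counts in WT versus 120 and 125 in Pim3-/- libraries, or 2.32 ± 0.477 against 4.67 ± 0.249 CPM (log2 fold change 1.01, SE 0.32, adjusted p = 0.0447). It was the upregulated antagonist, though its adjusted p was 0.0816 with the Wald test. Sfrp2 had 141 and 153 counts in WT versus 410 and 238 in Pim3-/- libraries (0.80, SE 0.29, adjusted p = 0.0701). Both Pim3-/- values of Sfrp2 were higher, the first by far more. Sfrp1, the family's highest gene per kilobase, had 1211 and 1484 counts in WT, 936 in Pim3-/- replicate 1 and 2168 in replicate 2. Its WT libraries lay close together at 64.3 ± 1.63 CPM and the clones far apart at 59.5 ± 34.6 CPM, with 1 clone on each side. The log2 fold change of -0.11 (SE 0.35, adjusted p = 0.826) was 0.39 without Pim3-/- replicate 1 (adjusted p = 0.0141) and -0.88 without replicate 2 (adjusted p = 6.7e-08). In those fits, whose spread comes from the WT libraries, 29.2% and 26.3% of all genes were called higher and 27.9% and 25.6% lower, so the 2 p-values are no evidence particular to Sfrp1. On library totals the value of Sfrp1 was 0.34. Sfrp4 had 224 and 276 counts in WT versus 304 and 214 in Pim3-/- libraries (-0.28, SE 0.24, adjusted p = 0.398). It was the tested member with both Pim3-/- libraries under both WT libraries in CPM, and on library totals its value was 0.17.

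The Dickkopf genes gave 1 testable member. Dkk3, whose product differs from the other Dickkopfs in its effect on Wnt signalling, had 235 and 283 counts in WT versus 244 and 441 in Pim3-/- libraries (log2 fold change 0.08, SE 0.31, adjusted p = 0.852), and its value was 0.47 without Pim3-/- replicate 1 and -0.44 without replicate 2. Dkk1, the LRP-binding inhibitor and itself a target of beta-catenin, had 0 and 1 counts in WT versus 12 and 3 in Pim3-/- libraries, a ratio of 11.9 (95% exact interval 1.84 to 503). Dkk2 and Dkk4 had no counts in WT, and 2 and 6 in Pim3-/- replicate 1 alone. These are too few for a statement on either genotype.

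Some of these genes differed widely between the clones. A gap of at least 2-fold in CPM between the Pim3-/- libraries was found for 6 of the 31 tested members, beside 11% of all tested genes. Fzd7 and Sfrp1 were higher in replicate 2, by 2.95-fold and 2.40-fold, and Dkk3, at 1.87-fold, was close to that limit on the same side. Wnt8a, Wnt11, Wnt3 and Rspo1 were higher in replicate 1, by 3.42-fold, 3.02-fold, 2.61-fold and 2.06-fold. None of these 7 genes was called between genotypes, but a wide gap between clones also raises the spread that the test uses. Between the WT libraries the gap reached 2-fold in 6 members, beside 6.63% of all tested genes, and all 6 were ligands with few counts: Wnt2b, Wnt3, Wnt3a, Wnt4, Wnt5a and Wnt10b.

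**Figure D3:**
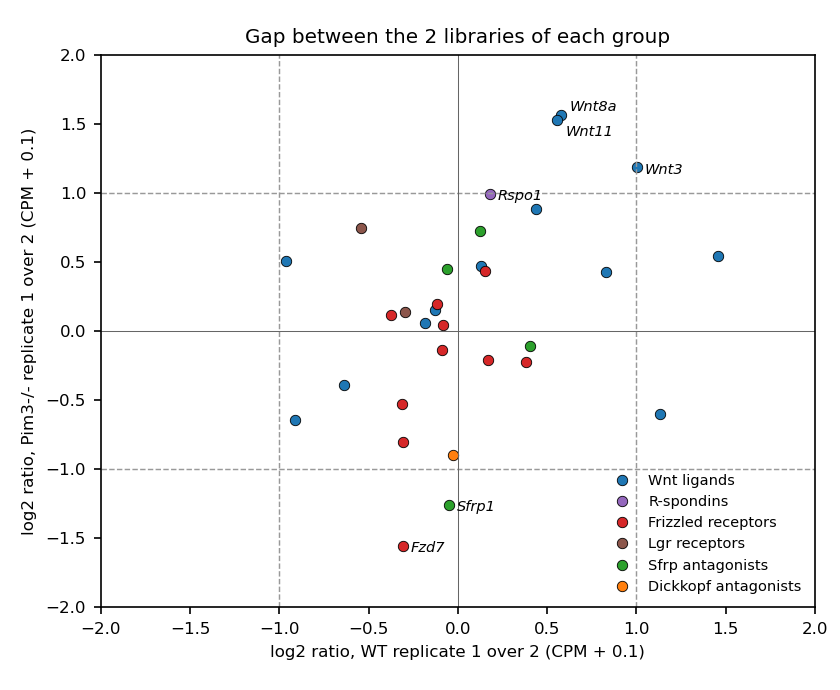
Log2 ratio of replicate 1 over replicate 2, with 0.1 added to each CPM, in WT (horizontal) and in Pim3-/- (vertical) for the 31 tested genes, coloured by class. Fzd7 and Sfrp1 lie low, at clone ratios of 2.95 and 2.40 in favour of replicate 2, while Wnt8a, Wnt11 and Wnt3 lie high.

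The composition of the family was compared as shares of its counts, which do not depend on the scaling between libraries. Frizzleds made up 52.6% and 53.8% of the family's counts in WT and 57.0% and 56.7% in Pim3-/- libraries. Ligands made up 4.42% and 3.65% in WT and 8.84% and 5.13% in Pim3-/- libraries. The share of Sfrp genes was 29.1% and 27.6% in WT and 19.1% and 25.5% in Pim3-/- libraries, and that of Fzd5, Sfrp1, Fzd7 and Lgr4 together, 71.1% and 73.3% in WT, was 56.8% and 66.5%. The groups did not overlap in these 4 shares. They overlapped in the other 3: Lgr genes made up 9.15% and 10.6% in WT and 11.0% and 8.11% in Pim3-/- libraries, Dickkopfs 4.21% and 4% against 2.85% and 4.12%, and R-spondins 0.519% and 0.437% against 1.13% and 0.427%. With 2 libraries against 2 an exact permutation test of a single share cannot give a two-sided p under 0.333, and none was run.

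The calls were also set beside all genes of like level. Among all tested genes with a mean log2 CPM under 0, 22.4% were called higher and the median log2 fold change was 0.86, while over 6 these values were 5.71% and -0.48. The 8 members in the bin under 0 cannot be read against these values, since 7 of them, including the 3 that were called, passed the filter only through the Pim3-/- libraries. From 0 to 2, 3 of 9 members were upregulated, Fzd1 among them, which had passed in the same way, and their median was 0.95 beside 23.5% and 0.53 of all genes. From 2 to 4, 5 of 9 members were upregulated with a median of 0.85, and those 5 were Fzd2, Fzd3, Fzd4, Fzd6 and Fzd9, beside 21.2% and 0.20. From 4 to 6, 1 of 4 was, with a median of 0.47 beside 15.3% and -0.09. Fzd5 was the member over 6.

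**Figure D4:**
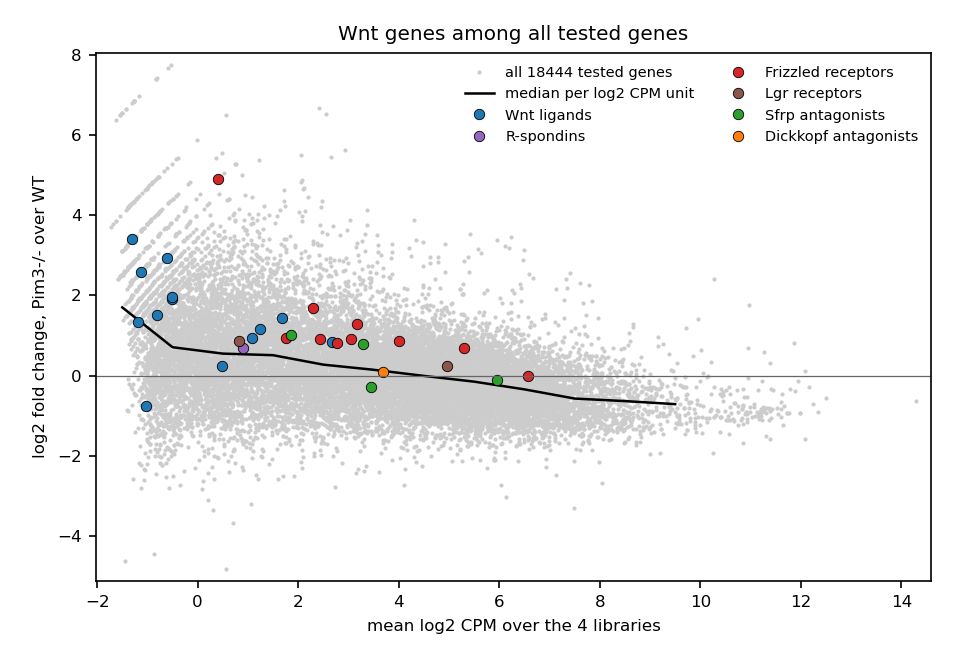
Log2 fold change of Pim3-/- over WT against mean log2 CPM over the 4 libraries for all 18444 tested genes (grey), with the median per log2 CPM unit as a line and the 31 members coloured by class. The line falls from left to right, from a median of 0.86 under 0 to -0.48 over 6; of the members drawn under 0, 7 of 8 passed the filter only through the Pim3-/- libraries.

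The rest of the pathway was read from a list of 77 other Wnt pathway genes, 67 of them tested. Of these 24 were upregulated and 2 downregulated, with a median log2 fold change of 0.53, beside 17.6% and 16.2% of all genes. As for the members, 0 passed without either WT library. Of the coreceptors and alternative receptors, 3 of 5 rose: Lrp5 (log2 fold change 0.86, adjusted p = 0.0179), Lrp6 (0.90, adjusted p = 0.00839) and the noncanonical receptor Ror2 (1.13, adjusted p = 0.00777). In the list for making and releasing ligands all 3 tested genes were called. Porcn, the enzyme that attaches the ligands' lipid, had 880 and 1015 counts in WT versus 1761 and 1650 in Pim3-/- libraries (0.52, SE 0.15, adjusted p = 0.0371). The call of Porcn was lost with DESeq2 size factors (adjusted p = 0.0504), without a filter on low counts (0.0803) and with the Wald test (0.0889). Wls, the carrier that takes Wnt proteins to the cell surface, had 40 and 54 counts in WT, 94 in Pim3-/- replicate 1 and 441 in replicate 2 (2.20, adjusted p = 0.0376), and its value was 2.93 without replicate 1 and 0.65 without replicate 2 (adjusted p = 0.101). Notum, which removes that lipid and so inactivates the ligands, fell by 0.86 on the log2 scale (adjusted p = 0.0232). Rnf43, the ligase that clears Frizzleds from the surface, rose from 15 and 19 counts to 80 and 94 (2.02, adjusted p = 0.00913). Among other modulators 3 of 8 rose, with Draxin at 1.12 (adjusted p = 0.0485, lost at 0.84 without Pim3-/- replicate 1) and Gpc3 at 1.04 (adjusted p = 0.0116).

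Inside the cell, 4 of 17 cytoplasmic genes rose and 0 fell, a share near the 17.6% of all genes called higher, and none of the 4 reached 2-fold. Ctnnb1, the gene of beta-catenin, had 10780 and 14803 counts in WT versus 14650 and 14671 in Pim3-/- libraries (log2 fold change -0.12, SE 0.19, adjusted p = 0.649), or 0.33 on library totals. Of 12 nuclear factors 4 rose, to be read against the same 17.6%. Lef1 had 39 and 33 counts in WT versus 522 and 154 in Pim3-/- libraries (2.87, adjusted p = 0.0101), with 1.78 without Pim3-/- replicate 1 and 3.49 without replicate 2. Pygo1, a beta-catenin cofactor, rose from 15 and 13 counts to 84 and 82 (2.22, adjusted p = 0.00801), and Bcl9l, another, had a log2 fold change of 1.55 (adjusted p = 0.011). Tcf7l1, a repressor of the TCF family, was at 0.44 (SE 0.24, adjusted p = 0.191).

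Of 12 tested genes widely used as Wnt targets, 5 rose and 1 fell, where 17.6% and 16.2% of all genes did. Cdx1, a posterior homeobox gene, had 45 and 48 counts in WT versus 173 and 311 in Pim3-/- libraries (log2 fold change 2.05, adjusted p = 0.00801). Nkd1 and Nkd2, feedback inhibitors, rose by 1.91 (adjusted p = 0.0102) and 1.23 (adjusted p = 0.0209), Ascl2 by 1.47 (adjusted p = 0.00887) and Msx2 by 1.80 (adjusted p = 0.0158; 1.12 without Pim3-/- replicate 1). Bambi, a TGF-beta pseudoreceptor, fell by 0.90 (adjusted p = 0.0123). Axin2, the most used readout of beta-catenin activity, had 116 and 162 counts in WT versus 286 and 259 in Pim3-/- libraries. It was higher in both clones but did not pass (0.65, SE 0.24, adjusted p = 0.0698). In the planar cell polarity list 2 of 8 rose, beside 17.6% of all genes, Celsr1 from 109 and 167 counts to 528 and 541 (1.64, adjusted p = 0.00472) and Prickle1 by 1.17 (adjusted p = 0.0301).

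**Figure D5:**
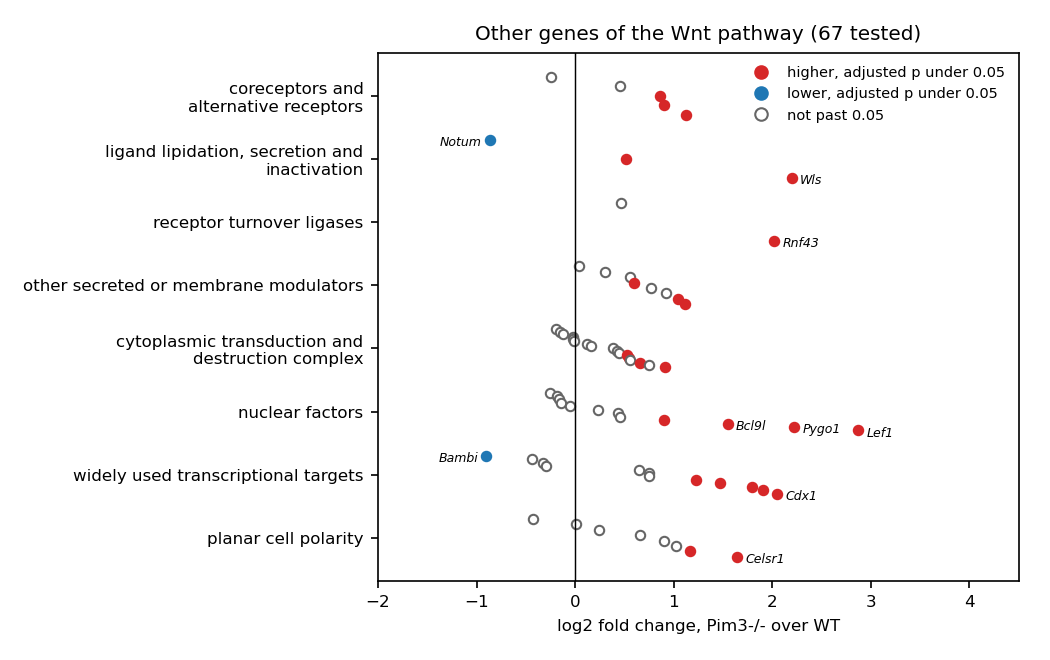
Log2 fold change of Pim3-/- over WT for the 67 tested genes of the other pathway lists, 1 row of points per list; filled points have an adjusted p under 0.05. Most filled points lie right of 0, with Lef1 farthest at 2.87, and Notum (-0.86) and Bambi (-0.90) are the filled points on the left.

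Markers of other cell types were compared in the same contrast. The counts of called markers are to be read against the 17.6% of all tested genes called higher and the 16.2% called lower. Markers of the labelled cell type were abundant in every library. The 10 ESC genes summed to 11070 and 9952 CPM in WT and 7201 and 6863 CPM in Pim3-/- libraries. Of the 10, 4 were called lower and 1 higher, where 42.2% of all genes with a mean log2 CPM over 6 were lower. Dppa5a (4397 and 3526 CPM in WT, 2078 and 1977 in Pim3-/-) and Pou5f1 (2353 and 2135, 1103 and 956) gave most of the fall. Sox2, Esrrb, Klf2, Klf4 and Tdgf1 had Pim3-/- over WT ratios of mean CPM from 1.02 to 2.7. Primitive endoderm, an extraembryonic lineage that arises in ESC cultures, was marked by 10 genes. They summed to 5.01 and 7.72 CPM in WT and 48.8 and 31 CPM in Pim3-/- libraries, with 7 of 8 tested genes higher. Sox17 (1 and 5 counts in WT), Sox7 (3 and 0), Dab2 (4 and 17) and Cubn (8 and 7) did not pass the filter in both WT libraries. They were tested through the Pim3-/- libraries, so the 7 of 8 rests in part on the filter and cannot be read against 17.6%. Sox17, Dab2 and Cubn had 85, 189 and 180 counts in Pim3-/- replicate 1 but 10, 46 and 10 in replicate 2. Gata4 (187 and 173) and Hnf4a (221 and 305) differed less between the clones. Primitive streak and mesoderm markers summed to 8.61 and 7.50 CPM in WT and 17.2 and 27.7 CPM in Pim3-/- libraries (1 of 5 tested higher). That gene, Eomes, gave most of the difference, with 3.86 and 3.04 CPM in WT and 10.5 and 22.2 CPM in Pim3-/-. Hand1 and Tbx6 were also higher in both clones, with ratios of mean CPM of 2.76 and 1.24, but did not pass. For T, Mixl1, Gsc, Mesp1 and Evx1 the Pim3-/- over WT ratios of mean CPM ran from 0.738 to 1.01. Neuroectoderm markers summed to 138 and 129 CPM in WT and 96.1 and 75.1 CPM in Pim3-/- (1 of 4 lower, with Pax3 and Neurog2 at or under 3 counts throughout). Nearly all of that sum was Tubb3, at 127 and 120 CPM in WT and 85.6 and 58.7 CPM in Pim3-/-, whereas Sox1 had 1.46 and 1.02 CPM in WT and 1.46 and 5.97 CPM in Pim3-/-, and Nes had a ratio of mean CPM of 1.72, neither of which passed. Trophoblast markers ran from 56.1 to 97.8 CPM with overlap between groups (2 of 6 higher, Eomes again and Gata3). Gata3, with 4 and 4 counts in WT, passed the filter only through the Pim3-/- libraries. Fibroblast markers summed to 27.6 and 28.2 CPM in WT and 49.0 and 44.9 CPM in Pim3-/- (1 of 3 higher). That gene, Pdgfrb, gave most of the difference, with 4.96 and 6.62 CPM in WT and 23.5 and 24.4 CPM in Pim3-/-. Col1a1 had 33 and 38 counts in WT versus 140 and 52 in Pim3-/-, higher in both clones, but did not pass. Col1a2, untested, had 1 and 3 counts in WT versus 30 and 3 in Pim3-/-, and Twist2 0 and 0 versus 2 and 4. Thy1 had a ratio of mean CPM of 0.915. Col3a1 and Dcn had at most 3 counts in each library and Lum had none. The part of any of these cells in the levels of the Wnt genes was not tested.

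Some values carry a counting limit. For 7 members part of the exons overlaps a gene on the other strand, and the sources do not say whether counting used strand: Fzd5 (17.8% of its exon bases), Sfrp2 (16.1%), Rspo3 (13.1%), Wnt11 (8.80%), Wnt7b (6.61%), Wnt5a (4.58%) and Fzd6 (3.15%). Reads from the overlapping stretches cannot be assigned to 1 gene with certainty.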

How the data were processed

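Total RNA of 2 WT and 2 Pim3-/- E14 ESC samples was sequenced as mRNA libraries. The authors deposited raw gene counts, not normalized, and no reads were processed again. Their methods name Cutadapt, Hisat2, mm10 and Ensembl genes, while the submitters' processing notes name Trim Galore, STAR, featureCounts and GRCm38, so the aligner is uncertain. Strand and multi-mapping settings are not given in the sources used here.

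The 44 members were taken by symbol; members and gene lists were chosen with earlier results of these data known. Of 55418 rows, 31418 had a count and 18444 passed filterByExpr (minimum count 10, minimum total 15). Counts were scaled by TMM and fitted with the quasi-likelihood test of edgeR 4.0.16 in R 4.3.3, two-sided, without a replicate block, with Benjamini-Hochberg adjustment over all tested genes and calls at 0.05. The SE is the log2 fold change divided by the square root of F. Ratios of summed counts carry 95% Clopper-Pearson intervals. DESeq2 1.42.0 was an alternative among 12 settings. Of the 77 other pathway genes, those called with a change of at least 2-fold were named, with Ctnnb1, Axin2, Tcf7l1 and Porcn in any case. Lrp5, Lrp6, Notum, Bambi and the single marker genes were named after their values were seen. Lengths and coordinates came from GENCODE (GRCm38), promoters from RefSeq (GRCm38.p6). The TE counts were not used here.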

Additional observations from a re-analysis of the deposited data

How the results depend on the processing

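With 2 libraries a group, a call rests on a spread borrowed across genes, and ligands with few counts have wide errors. The 12 upregulated members became 21 with library totals, 7 with the DESeq2 Wald test (without Fzd2, Fzd4, Sfrp5, Wnt2b and Wnt10b), 5 when a change of at least 3-fold was also asked, and 0 to 21 when 1 library was left out. They were 10 with DESeq2 size factors (16.2% of all genes) and 8 of 43 tested members without a filter (9.1%). With at least 10 counts in every library they were 10 of 22 tested members (16.9%), and with a 1.5-fold minimum 12 (17.2%). Of all genes 13.9% were higher with the Wald test and 8.47% at 3-fold. All but Fzd6 of the 5 members at 3-fold had passed the filter only through the Pim3-/- libraries. The 0 downregulated members became 0 to 1 with 1 library left out. The 24 upregulated pathway genes became 43 with library totals, 8 at 3-fold and 0 to 35 with 1 library left out, and the 2 downregulated ones 0, 0 and 0 to 5. Both leave-one-out counts of 0 among upregulated genes came from leaving out a WT library, where the lone WT library is assumed to vary like the clones. The cause was not tested. Directions reversed for Fzd5 (0.45 on library totals, 0.08 with at least 10 counts in every library, -0.11 to 0.09 with 1 library left out), Sfrp1 (0.34 on library totals, 0.39 without Pim3-/- replicate 1, -0.88 to 0.39 over left-out libraries), Sfrp4 (0.17), Ctnnb1 (0.33) and Pim3 (0.19) on library totals, Fzd7 (-0.28, up to 1.28 over left-out libraries) and Dkk3 (-0.44, up to 0.47) without Pim3-/- replicate 2, and Wnt5b (-0.31 without Pim3-/- replicate 1, 0.00 without WT replicate 2, up to 0.64). On library totals 35.8% of all genes were called higher and 5.93% lower. Same-numbered libraries of the groups did not deviate together (correlation 0.031 over all tested genes, 2 pairs). With 2 pairs, and a Pim3-/- difference that is also one between clones, this value cannot decide whether the numbers pair the libraries. With the replicate block 12 members (11 of them shared, Wnt4 in place of Fzd2) and 24 pathway genes were upregulated, beside 18.5% of all genes.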
